A study of Homo sapiens with 3 samples.

Results

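The regions described here are the accessible intervals in and around 10 genes for RNA-binding proteins that regulate splicing and mRNA in neurons: RBFOX1, RBFOX2, RBFOX3, ELAVL2, ELAVL3, ELAVL4, NOVA1, NOVA2, PTBP1 and PTBP2. A region was assigned to a gene when its strongest summit lay inside the RefSeq gene body or within 50 kb of its outer ends, and 97 of the 65234 regions in the list met this rule. ATAC-seq, in which the Tn5 transposase cuts and tags accessible DNA, was carried out on 3 biological replicates of the KOLF2.1J-hNGN2 line, which were taken at day 14 of neuronal differentiation. KOLF2.1J is an established line of human induced pluripotent stem cells, NGN2 is a factor that drives such cells towards a neuronal fate, and all samples belong to this line and this day, so that there is 1 group and no untreated comparison. The study used these data to nominate regulatory elements of the tau gene MAPT. The deposited list pools the replicates, so the replicates have no spread to report, and what is compared are places in the genome.

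RBFOX proteins bind a short motif in introns and switch exons on or off according to the side of the exon on which they sit, and RBFOX3 is the protein known as the neuronal marker NeuN. The neuronal ELAVL (Hu) proteins bind U-rich and AU-rich RNA and stabilise or splice it. NOVA1 and NOVA2 regulate exons of synaptic and axon guidance transcripts. PTBP1 represses neuronal exons in non-neuronal cells and progenitors, among them an exon that PTBP2 needs for its protein to be made, and the replacement of PTBP1 by PTBP2 is a known step of neuronal differentiation. Several of these genes use more than 1 promoter, which gives transcripts with different first exons. Accessibility was measured here and expression was not, and in a bulk sample fewer cells with an open site cannot be told apart from a site that is open less often in every cell.

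Marker genes were checked against the label of the cells. An accessible region lay at the start of 8 of 8 neuronal marker genes, 4 of 5 progenitor genes, 2 of 6 glial genes, 1 of 5 pluripotency genes (LIN28A, where either end was counted) and 0 of 6 genes of non-neural tissues, beside 65% of all 20033 protein-coding genes. Fold enrichment is the authors' ratio of tags at a summit to the local background, and the tag counts of the pooled data were recovered from that ratio and its p-value. Over the 97 regions the tag counts ran from 94 to 2502, which is a counting error of 10.3% at the lowest and 2% at the highest. Intervals in the text are exact Poisson 95% intervals and cover counting error only, since PCR copies are not independent molecules.

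The start of a gene was examined first, because several members have starts far inside the gene. RefSeq's GRCh38.p14 table of promoters lists 37 starts for 8 of the 10 genes, and RBFOX2 and ELAVL3 have no entry. Starts inside an accessible region and starts outside all regions are compared here by the 250 bases before a listed start, 5′ to 3′ on the strand of the gene, with CpG dinucleotides in capitals. The first 5 lines set starts of RBFOX1 and RBFOX3 inside a region against starts outside, the next pair does so for ELAVL4, and the last lines are starts of ELAVL2, NOVA1 and PTBP1 inside a region for comparison.
RBFOX1 start 6019024, within a region, chr16:6018774-6019023, plus strand: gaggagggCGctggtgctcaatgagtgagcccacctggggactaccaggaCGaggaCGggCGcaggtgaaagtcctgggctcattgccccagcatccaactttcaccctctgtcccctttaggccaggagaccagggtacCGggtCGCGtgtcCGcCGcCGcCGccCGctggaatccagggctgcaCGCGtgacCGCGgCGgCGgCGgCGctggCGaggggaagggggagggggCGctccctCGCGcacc
RBFOX1 start 6483386, within a region, chr16:6483136-6483385, plus strand: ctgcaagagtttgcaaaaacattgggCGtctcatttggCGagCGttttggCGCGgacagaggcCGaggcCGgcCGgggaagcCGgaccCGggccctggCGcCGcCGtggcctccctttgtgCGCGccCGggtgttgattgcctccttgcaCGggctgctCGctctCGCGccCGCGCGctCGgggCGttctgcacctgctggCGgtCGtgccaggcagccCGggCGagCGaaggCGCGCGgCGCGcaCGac
RBFOX1 start 7510122, outside regions, chr16:7509872-7510121, plus strand: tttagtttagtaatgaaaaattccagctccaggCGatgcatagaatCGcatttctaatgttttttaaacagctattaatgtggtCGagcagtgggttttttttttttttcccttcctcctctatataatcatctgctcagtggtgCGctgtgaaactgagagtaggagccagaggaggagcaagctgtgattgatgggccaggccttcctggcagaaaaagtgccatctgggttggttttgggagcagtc
RBFOX3 start 79658975, within a region, chr17:79658976-79659225, minus strand: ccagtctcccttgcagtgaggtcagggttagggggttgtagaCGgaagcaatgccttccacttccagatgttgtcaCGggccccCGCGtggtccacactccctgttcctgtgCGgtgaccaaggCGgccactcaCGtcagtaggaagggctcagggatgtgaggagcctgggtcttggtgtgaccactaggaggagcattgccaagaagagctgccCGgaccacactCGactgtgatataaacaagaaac
RBFOX3 start 79609161, outside regions, chr17:79609162-79609411, minus strand: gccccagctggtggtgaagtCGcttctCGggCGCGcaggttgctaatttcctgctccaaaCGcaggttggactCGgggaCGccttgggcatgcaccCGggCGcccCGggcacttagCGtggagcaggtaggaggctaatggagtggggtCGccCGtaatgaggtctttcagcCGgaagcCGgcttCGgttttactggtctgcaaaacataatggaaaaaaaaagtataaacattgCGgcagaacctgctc
ELAVL4 start 50048055, outside regions, chr1:50047805-50048054, plus strand: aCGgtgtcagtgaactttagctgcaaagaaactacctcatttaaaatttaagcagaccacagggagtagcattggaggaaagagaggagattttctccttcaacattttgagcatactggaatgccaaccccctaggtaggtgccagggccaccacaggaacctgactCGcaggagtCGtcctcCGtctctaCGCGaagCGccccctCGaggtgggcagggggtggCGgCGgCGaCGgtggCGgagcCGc
ELAVL4 start 50109833, within a region, chr1:50109583-50109832, plus strand: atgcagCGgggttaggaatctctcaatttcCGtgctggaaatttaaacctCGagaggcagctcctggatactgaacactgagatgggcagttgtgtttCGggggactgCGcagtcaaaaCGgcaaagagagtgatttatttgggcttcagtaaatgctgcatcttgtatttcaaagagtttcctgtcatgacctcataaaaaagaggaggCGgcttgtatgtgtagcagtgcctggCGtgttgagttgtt
ELAVL2 start 23826240, within a region, chr9:23826241-23826490, minus strand: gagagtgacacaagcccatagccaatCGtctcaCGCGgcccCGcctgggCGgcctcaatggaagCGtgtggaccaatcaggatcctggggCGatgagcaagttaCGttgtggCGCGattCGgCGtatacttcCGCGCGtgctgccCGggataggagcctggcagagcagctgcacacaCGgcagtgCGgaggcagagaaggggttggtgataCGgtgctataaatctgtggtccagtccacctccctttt
NOVA1 start 26598033, within a region, chr14:26598034-26598283, minus strand: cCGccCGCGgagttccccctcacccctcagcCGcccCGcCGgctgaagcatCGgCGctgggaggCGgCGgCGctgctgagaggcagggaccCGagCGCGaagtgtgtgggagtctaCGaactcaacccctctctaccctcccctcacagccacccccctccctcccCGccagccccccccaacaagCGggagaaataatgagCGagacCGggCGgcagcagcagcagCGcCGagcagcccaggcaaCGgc
PTBP1 start 797452, within a region, chr19:797202-797451, plus strand: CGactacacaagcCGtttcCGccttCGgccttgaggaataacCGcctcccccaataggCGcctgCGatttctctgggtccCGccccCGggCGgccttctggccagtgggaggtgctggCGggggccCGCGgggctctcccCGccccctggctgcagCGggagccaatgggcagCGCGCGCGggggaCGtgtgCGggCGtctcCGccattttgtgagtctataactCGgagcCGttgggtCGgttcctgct
The starts of RBFOX1 inside a region, at 6019024, 6019703 and 6483386, had observed-to-expected CpG ratios of 0.77, 0.69 and 1.1. Those outside, at 7332845 and 7510122, had 0.26 and 0.34. RBFOX1 at 6019024 was preceded by 24 CpGs in 250 bases and the start at 6483386 by 36, whereas the start at 7510122, which lay 105 kb from the nearest summit, was preceded by 4. In RBFOX3 and ELAVL4 the pairs shown run the other way. RBFOX3 had a region over 79658975 with 9 CpGs and none over 79609161 with 17, and ELAVL4 had a region over 50109833 with 8 CpGs and none over its first start, 50048055, with 14. These starts outside regions had the highest observed-to-expected CpG ratios of such starts in their genes, 0.83 and 0.71. The other starts outside regions ran from 0.18 to 0.5 in RBFOX3 and from 0 to 0.63 in ELAVL4. The starts inside regions had 0.43 and 0.5 in RBFOX3 and 0.62 in ELAVL4.

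All 37 listed starts were then placed against the regions. A region held 15 of the 37 starts within its bounds, beside 65.5% of all 22182 listed starts of protein-coding genes and 56.9% of those in genes with 5 or more listed starts. The member share was uneven between genes. Among members with 5 or more listed starts it was 2 of 12 in RBFOX3, 1 of 7 in ELAVL4, 4 of 6 in ELAVL2 and 3 of 5 in RBFOX1. The 15 starts had a median GC content of 70% and a median observed-to-expected CpG ratio of 0.77 before the start, against 47.4% and 0.353 for the other 22. Over all protein-coding genes the same medians were 66% and 0.825 for starts within regions and 51.6% and 0.267 for the rest. None of the 13 member starts with a CpG ratio under 0.4 lay in a region, beside 17% of such starts in all genes. Among those between 0.4 and 0.7 it was 5 of 10, beside 67%, and among those of 0.7 or more 10 of 14, beside 92%. The 4 CpG-rich starts outside regions were the outer start of ELAVL4, the start of RBFOX3 at 79609161 and the starts of ELAVL2 at 23823132 and 23822555. For each group these are counts of neighbouring starts that share sequence, and no test was made on them.

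**Figure D1:**
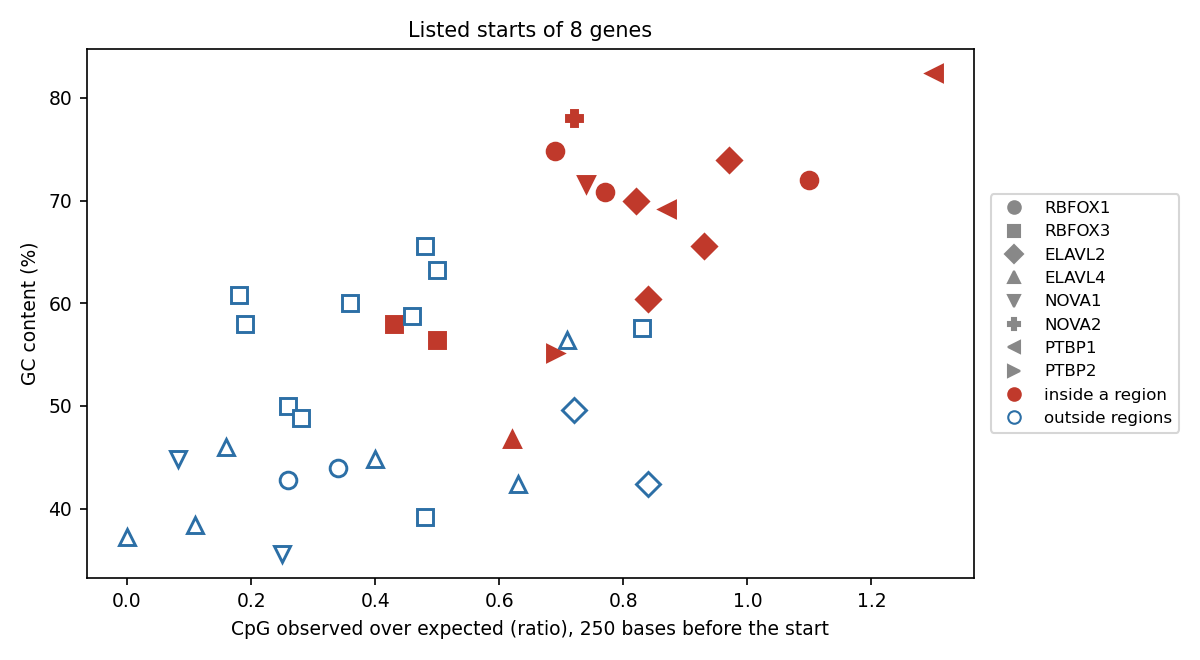
Each symbol is a listed start of 1 of 8 genes, placed by the observed-to-expected CpG ratio (x axis) and GC content in percent (y axis) of the 250 bases before it; filled symbols lie inside an accessible region and open ones do not. Starts to the left of a ratio of 0.4 are all open symbols, and the filled symbols with the lowest GC content are ELAVL4 at 46.8% and PTBP2 at 55.2%.

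Words of known promoter and E-box motifs were counted in the same 250 bases on both strands. GGGCGG, the core of the GC box, stood before 11 of the 15 member starts in regions and 2 of the other 22, beside 68.8% of all listed starts in regions and 25.2% of those outside. CAGATG, an E-box word of the kind bound by proneural factors, stood before 4 of the 15 and 3 of the 22, beside 7.32% and 15.7%. The E-box word CAGCTG stood before 1 of the 15 and 6 of the 22, beside 12.5% and 16%. CATATG, a further such word, stood before none of the 37, beside 1.78% of all listed starts. The 4 starts in regions with CAGATG were RBFOX3 at 79658975 and 79658955, RBFOX1 at 6019703 and PTBP2 at 96722638. The bases before these RBFOX3 starts overlap, so that the same CAGATG was counted for both. CCAAT stood before 6 of the 15 and 7 of the 22, beside 33.6% and 31%. GGACAG and CAGCACC, pieces of the element bound by the repressor REST, were counted in the same way. GGACAG stood before 4 of the 15 and 7 of the 22, beside 16.3% and 20%, and CAGCACC before 2 of the 15 and 0 of the 22, beside 6.06% and 6.27%. CAGCACC was found before RBFOX1 at 6019703 and PTBP1 at 797452. TATAAA stood before 3 of the 15 and 3 of the 22, beside 4.92% and 16.8%, and TGACGTCA before 0 of the 37, beside 2.02% of all listed starts. The same TATAAA was likewise counted for both RBFOX3 starts in a region. A match is a description of the letters and not of a bound factor, and these words overlap where they share letters.

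By the outer start, taken as the 5′ end of the whole gene where a strand is listed and as either end for RBFOX2 and ELAVL3, a strongest summit lay within 1 kb in 7 of the 10 genes, beside 65% of protein-coding genes. RBFOX1, RBFOX3 and ELAVL4 were the 3 without. When any listed start was counted as well, RBFOX1 and RBFOX3 joined the others and 9 of 10 genes had a summit within 1 kb of some start. Of all 20033 protein-coding genes, 13027 had a summit within 1 kb of the outer start. Among the 5239 others with listed starts, 865 (16.5%) had a summit within 1 kb of a listed start, and these add to the 13027. By region bounds, 910 of the 5239 (17.4%) had a listed start within a region. Of the 8 genes with listed starts, 7 had such a summit at a listed start, beside 71.2% of all protein-coding genes with listed starts. ELAVL4 joined when a start within the bounds of a region was counted, because the strongest summit of its region lay 1077 bp from the start it holds. The region of ELAVL2 from 23825150 to 23825343 lay just inside the limit, at 999 bp. Such an internal start is common in genes of this kind: of 78 protein-coding genes with 5 or more listed starts and no region at the outer start, 87.2% held a listed start within a region. The count of 3 of 3 for RBFOX1, RBFOX3 and ELAVL4 is close to that share and is no result about these genes.

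The regions at the starts differed widely in strength. For each gene the region with the most tags was taken among those with the strongest summit within 1 kb of a start or with a listed start within their bounds. PTBP1 stood first with 2502 tags (2405 to 2602), then ELAVL2 with 1996 (1909 to 2086), NOVA1 with 1414 (1341 to 1490) and PTBP2 with 1120 (1055 to 1188). RBFOX2 and NOVA2 followed with 820 (765 to 878) and 740 (688 to 795), whose intervals overlap. ELAVL4 had 552 (507 to 600) and ELAVL3 483 (441 to 528), and these overlap too. RBFOX3 with 159 (135 to 186) and RBFOX1 with 139 (117 to 164) were lowest and also overlap each other. The intervals of the other neighbours in this order do not overlap. The summits ranked for ELAVL2 and NOVA1 lay 8 and 160 bp from ends of the non-coding genes LOC105375992 and NOVA1-DT. In each case the 2 genes cannot be told apart as the gene of the region. Set among the 11946 regions at outer starts of protein-coding genes, which had a median of 889 tags, PTBP1 was at percentile 98.1, while RBFOX3 and RBFOX1 were at 3.62 and 2.05. Fold enrichment gave another order, led by PTBP2 at 12.9 and PTBP1 at 12.1. The 7 regions at outer starts had a median percentile of 35.5 by fold enrichment (range 3.95 to 72.7) and 46 by tag count (25.8 to 98.1).

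**Figure D2:**
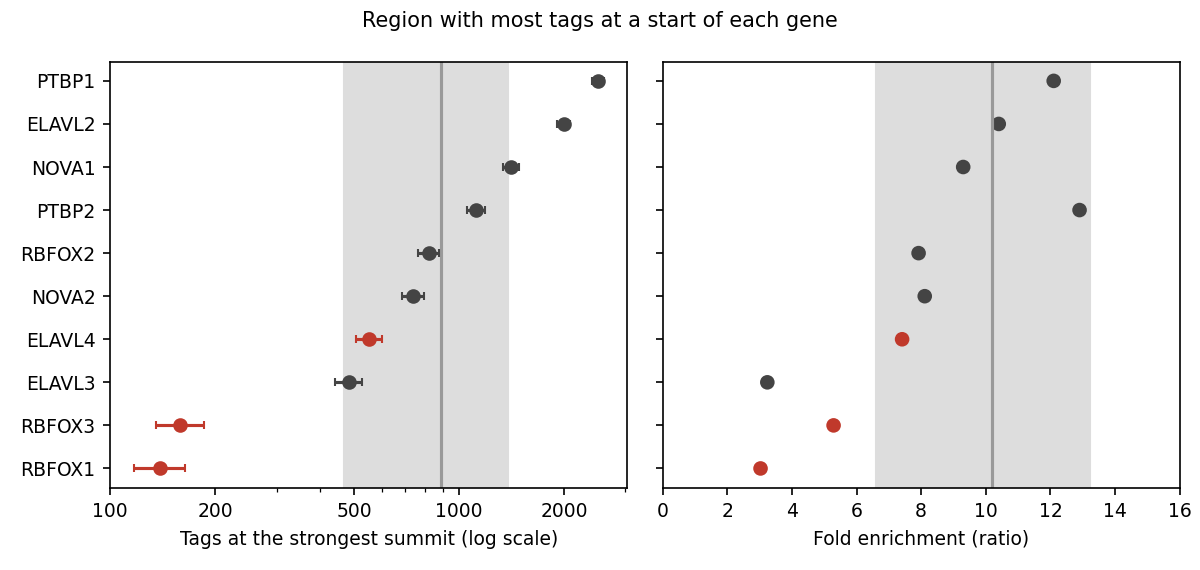
For each gene, the left panel gives the tags at the strongest summit of the start region with the most tags (log scale, bars are exact Poisson 95% intervals) and the right panel the fold enrichment of that summit; grey bands span the middle 50% of regions at outer starts of protein-coding genes and the line is their median. Red points are the genes with no region at the outer start, and RBFOX1 and RBFOX3, at 139 and 159 tags, lie left of the band.

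RBFOX1 is the longest member, at 2474 kb on chromosome 16 (5239721 to 7713340, plus strand), with 52 RefSeq transcripts. Its window held 33 regions, of which 32 were internal, that is, inside the gene and more than 1 kb from both outer ends. The nearest region to the outer start lay 13566 bp upstream of it, at chr16:5225727-5226468, with 121 tags and a fold enrichment of 4.04. The first listed starts, at 6019024 and 6019703, are 779.3 and 780 kb into the gene, and both lay in the region chr16:6018717-6020536. This region is 1820 bp wide and has 5 summits, of 132, 139, 127, 100 and 84 tags in order along the gene, over a background of 44.4 to 45.7 tags. The summit of 132 tags lay 31 bp upstream of the first start and that of 127 tags lay 84 bp downstream of the other. The third listed start, at 6483386, lay in the region chr16:6482797-6484418, with summits of 63, 70 and 123 tags over a background of 29.2. The summit of 70 tags was 12 bp from the start and the strongest was 399 bp downstream. No region was found at the listed starts 7332845 and 7510122, which lay 8.35 and 105 kb from the nearest strongest summit.

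The regions at the listed starts of RBFOX1 were the widest inside the gene but not the strongest. Their widths of 1820 and 1622 bp compare with a median of 623 bp (range 254 to 1222 bp) for the 30 other internal regions, of which 20 have a single summit. In tags the 30 ranged from 94 to 411 with a median of 154, and in fold enrichment from 3.14 to 9.04 with a median of 4.51, against 3.03 and 4.1 for the pair at starts. The most tags, 411 (372 to 453) at a fold enrichment of 8.58, were found at chr16:5449960-5451181, 210.9 kb into the gene. The highest fold enrichment, 9.04 with 386 tags (348 to 426), was at chr16:6122193-6122878, 102891 bp downstream of the start at 6019703. The regions at the listed starts had deposited scores of 687 and 781, so both are lost when a score of at least 830 is asked for. The count of genes with a region at the outer start or over a listed start then falls from 10 to 9. This way of counting was chosen after seeing the data. Without the score minimum, 13027 of all 20033 protein-coding genes had a region at the outer start, and 910 of the others had a listed start within a region.

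Internal regions of RBFOX1 were spread unevenly. No region lay between 6684696 and 7025488, a stretch of 340.8 kb, between 7405758 and the end of the gene (307.6 kb) or between 5634304 and 5870904 (236.6 kb). The last listed start falls in the stretch at the end of the gene. Pairs of neighbouring regions stood at chr16:5502289-5502850 and chr16:5503825-5504856, with 220 and 252 tags, and at chr16:6682182-6682435 and chr16:6683928-6684696, with 167 and 229 tags. The region chr16:5615941-5616653, with 310 tags, had its summit 52 bp from an end of the nested non-coding gene LINC01570 so that RBFOX1 and LINC01570 cannot be told apart as its gene. The 8 protein-coding genes within 25% of its length had 3 to 66 internal regions, with a median of 31, close to its 32. The nearest in length, CNTNAP2, PTPRD and DMD, had 40, 41 and 22.

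RBFOX3 spans 576.2 kb on chromosome 17 (79089345 to 79665571, minus strand), and 13 of the 18 regions in its window were internal. Its 12 listed starts lie between 6.596 and 240.8 kb from the outer start, and only the first pair, at 79658975 and 79658955, lay in a region. That region, chr17:79658368-79659351, has a summit of 159 tags (135 to 186) 35 bp upstream of the first of them and another of 87 tags, over a background of 29.2. Its fold enrichment was 5.29, at percentile 16.5 of regions at outer starts. The next listed start, at 79609161, had no region over it, but a region with 5 summits and 239 tags (210 to 271) at chr17:79610320-79611581 had its strongest summit 1896 bp upstream and its nearest summit 1338 bp upstream. A further region at chr17:79618052-79619007, with 250 tags, lay 9370 bp from the same start. The 8 listed starts that follow, from 79608613 down to 79509838, and the last one, at 79424748, held no region.

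More than 1 group of regions in RBFOX3 lay away from any listed start. Downstream of the last listed start stood a group of 4 regions between 79388543 and 79402169, with 168, 235, 255 and 357 tags, the last (321 to 396) at a fold enrichment of 6.97 being the strongest inside the gene. The region chr17:79464738-79466272 had 6 summits, the most of any internal region of RBFOX3, and 191 tags. The region chr17:79183256-79184204, with 282 tags, had its summit 372 bp from an end of the nested non-coding gene LOC124904069. The longest stretches without a region were 167.1 kb (79221489 to 79388543) and 108.6 kb (79501724 to 79610320), and the shorter of these stretches covers the 9 listed starts from 79609161 to 79509838. The internal count of 13 stood at percentile 63 among 262 protein-coding genes within 25% of the length, whose median was 11. Of the nearest in length, LRRC7, PDE1A and KCNQ5 had 7, 13 and 7. In the flank, the region chr17:79074449-79075628, 50 bp from an end of ENGASE, was the strongest in the window, with 750 tags and a fold enrichment of 10.9.

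**Figure D3:**
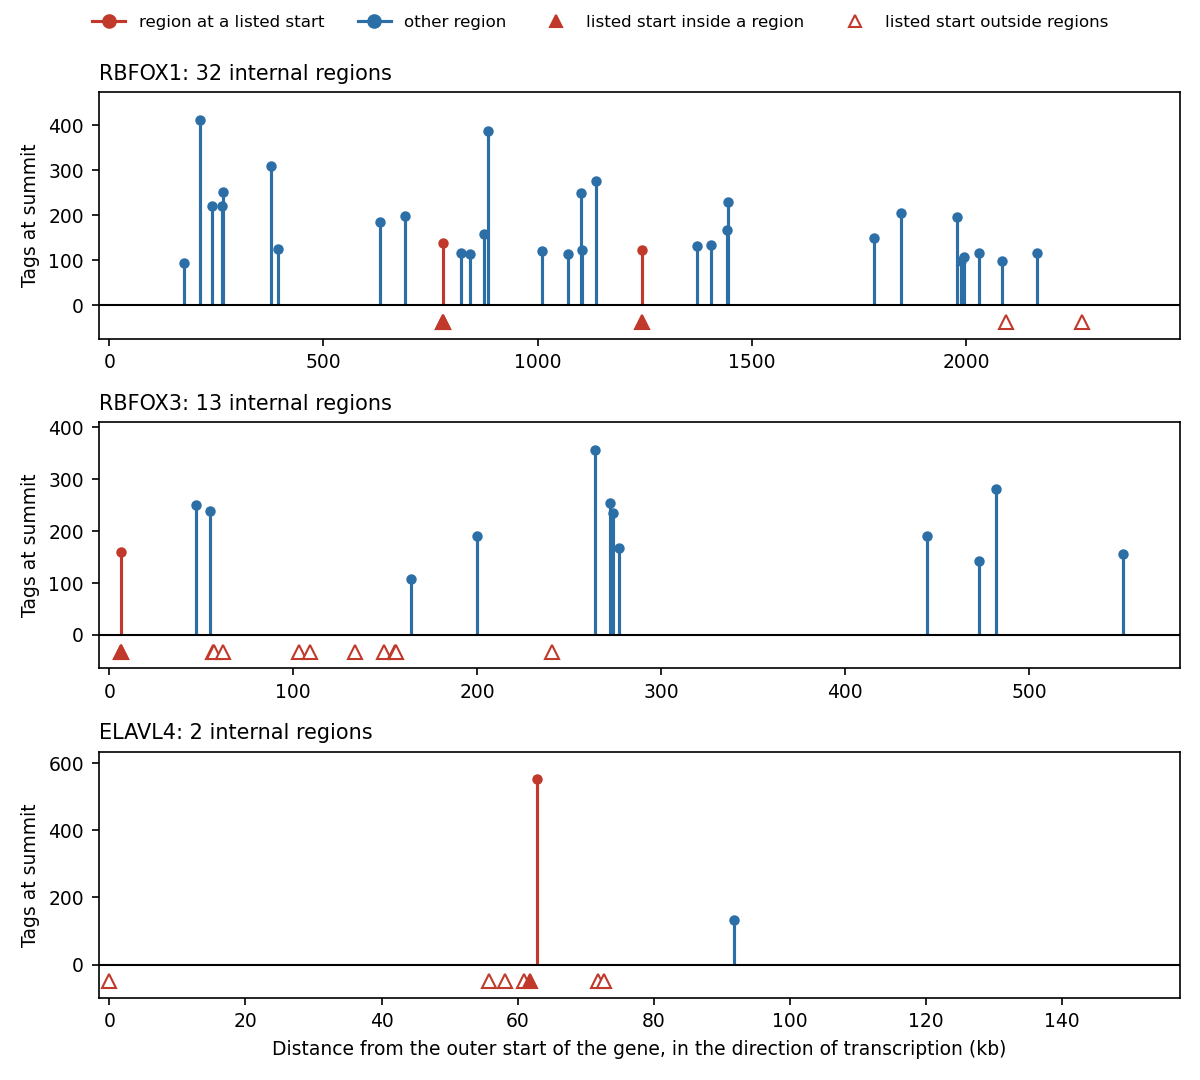
Each line is an internal region of RBFOX1, RBFOX3 or ELAVL4, placed by the distance of its strongest summit from the outer start (x axis, kb) and as high as its tags (y axis); triangles under the axis are listed starts, filled when inside a region. In RBFOX1 and RBFOX3 the regions at listed starts, at 123 to 159 tags, are lower than many other regions, and in ELAVL4 the region at the start is the higher of the pair, at 552 against 132 tags.

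RBFOX2, on chromosome 22 (35738736 to 36028824), differed from the other RBFOX genes in having a region at an outer end. The region chr22:36027757-36029519 is 1763 bp wide, with 4 summits of 165, 558, 704 and 820 tags towards higher coordinates, the last 291 bp beyond the end. All 9 internal regions lay in the 192.3 kb towards that end. Among them were chr22:35961154-35962182, with a fold enrichment of 13.7 and 598 tags (551 to 648), and chr22:35914309-35915920, with 11.1 and 592 tags (545 to 642). Both had a higher fold enrichment and fewer tags than the region at the end. The region chr22:35838909-35839576 had its summit 330 bp from the pseudogene RPL41P3. Outside the gene, chr22:36065372-36066564, 37156 bp beyond the same end, had a fold enrichment of 13.2 and 789 tags. The 9 internal regions compare with a median of 6 in 661 genes of similar length (percentile 78.3).

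ELAVL4 was the ELAVL gene with no region at its outer start. It lies on chromosome 1 (50048055 to 50203772, plus strand), with 7 listed starts, and its window held 4 regions, 2 of them internal. The outer start at 50048055 was 24109 bp from the nearest summit, which belongs to a region at the end of AGBL4 (chr1:50023166-50024613, 462 tags). The internal region chr1:50109559-50111277 held the start at 50109833. It had 7 summits, of 131, 253, 223, 272, 220, 552 and 157 tags along the gene, over a background of 73 to 77.4 tags. The summit of 253 tags (223 to 286) lay 1 bp from the listed start, and the one of 552 tags (507 to 600) lay 1077 bp downstream at a fold enrichment of 7.41. The start at 50108920 was 723 bp from the first of these summits but outside the region, and the starts at 50103909, 50106231, 50119786 and 50120751 were 4.68 to 9.84 kb from the strongest one. The other internal region, chr1:50139177-50140426, had 132 tags (110 to 157) and a score of 753. A count of 2 internal regions stood at percentile 36.8 among 1360 genes of similar length, whose median was 3. Of the nearest in length, UGT1A8, CREBBP and PRORP had 3, 0 and 0.

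ELAVL2, on chromosome 9 (23690104 to 23850601, minus strand), was open at its outer start and at listed starts inside the gene. The region at the outer start, chr9:23849398-23851775, was the widest of the 97 at 2378 bp, with 6 summits of 147 to 687 tags. Its strongest summit lay 519 bp beyond the outer end and 7 bp from an end of the non-coding gene LOC105375993. ELAVL2 and LOC105375993 thus cannot be told apart as the gene of this region, and the first listed start of ELAVL2 is 24.36 kb into the gene. The region chr9:23826111-23826827, 196 bp upstream of the listed start at 23826240, had a single summit of 1996 tags (1909 to 2086) at a fold enrichment of 10.4, the most tags of any internal region. Its summit lay 8 bp from an end of the non-coding gene LOC105375992, so that ELAVL2 and LOC105375992 cannot be told apart as its gene. The region chr9:23820533-23822052 held 3 listed starts, at 23821820, 23821309 and 23821156, with summits of 766, 589, 367 and 484 tags along the gene. The strongest of these had a ratio to background of 3.59, the background being 212 tags. The region just inside the distance limit, with 424 tags, had the lowest fold enrichment of the 97, 1.96. ELAVL2 had 4 internal regions, at percentile 66.1 among 1315 genes of similar length, and the remaining one, chr9:23778878-23779763, had 159 tags and lay 41743 bp from the nearest listed start.

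ELAVL3, on chromosome 19 (11451326 to 11481046), is 29.72 kb long and had no internal region, as did 61.1% of 2689 genes of similar length. Its region at the end of higher coordinates, chr19:11479253-11481223, is 1971 bp wide with 6 summits, of 208, 463, 365, 329, 284 and 483 tags, the last 29 bp beyond the end. It extends from that end into the gene, for which no strand is listed. Its strongest and next strongest summits, at 483 (441 to 528) and 463 (422 to 507), overlap in their intervals. The fold enrichment of 3.24 was at percentile 3.95 of regions at outer starts and the tag count at percentile 25.8. Of the 7 regions in the window, 4 lay at ends of other genes. Fold enrichment was highest, at 13.7 (872 tags), in chr19:11528580-11529612, whose summit lay 43 bp from an end of ECSIT.

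NOVA1 and NOVA2 were each open at the outer start. The region at NOVA1, chr14:26597593-26599168, had summits of 353, 1414 and 677 tags along the gene, and the strongest, at a fold enrichment of 9.3, lay 454 bp upstream of the start and 160 bp from an end of the divergent transcript NOVA1-DT. NOVA1 is 154.9 kb long (chromosome 14, 26443090 to 26598033, minus strand) and had a single internal region of 106 tags, 1902 bp from the far end. That count stood at percentile 20.6 among 1369 genes of similar length. In the flank the highest fold enrichment, 5.07 with 192 tags, was at chr14:26393963-26394858, 48836 bp beyond the far end. The listed starts of NOVA1 at 26596097 and 26553430 held no region. NOVA2 (chromosome 19, 45933734 to 45973865, minus strand) had a region of 740 tags with a single summit 233 bp upstream of its only listed start, 45973865, at chr19:45973645-45974405. An internal region of NOVA2, chr19:45953799-45955206, 19.49 kb into the gene, had more than the start, 1491 tags (1416 to 1569) at a fold enrichment of 12. It was the internal region with the most tags that lay at no listed start. With 2 internal regions in 40.13 kb NOVA2 stood at percentile 87.3 among 2576 genes of similar length. The highest fold enrichment in its window, 15.6 with 2026 tags, lay 176 bp from an end of CCDC61.

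PTBP1 and PTBP2 were both open at the outer start and had no internal region. At PTBP1 (chromosome 19, 797452 to 812312, plus strand) the region chr19:796782-798093 covered both listed starts, with 2502 tags 227 bp upstream of the first and 765 tags (712 to 821) 125 bp upstream of the other. It had the most tags of the 97 regions. The other 3 regions in the window of PTBP1 lay outside, with 120 to 353 tags, and the strongest of them, chr19:821499-822806, lay 9773 bp beyond the far end. PTBP2 (chromosome 1, 96721784 to 96823739, plus strand) had 1 region in its whole window, chr1:96721133-96722717. That region held 6 summits, of 208, 527, 1120, 566, 420 and 420 tags along the gene, with the strongest 78 bp before the outer end and 932 bp upstream of the listed start at 96722638. A length of 102 kb without an internal region was shared by 24% of 1841 genes of similar length. PTBP1 thus had more tags at its start than PTBP2, with intervals that do not overlap, while its fold enrichment was the lower of the pair over a background of 206 against 85.7 tags.

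**Figure D4:**
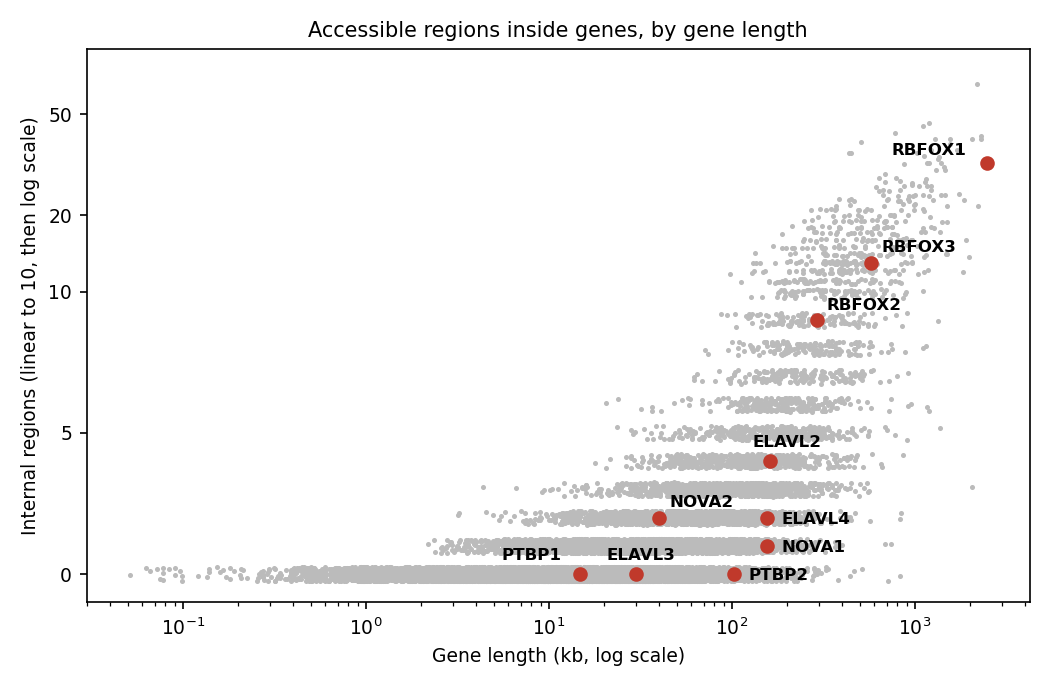
Each grey dot is a protein-coding gene, placed by its length (x axis, kb, log scale) and its number of internal regions (y axis, linear to 10 and log above, with a small random vertical offset); red points are the 10 genes. RBFOX1, RBFOX3 and RBFOX2, with 32, 13 and 9, lie within the spread of genes of their length.

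The 97 regions divided into 7 at outer starts, 7 internal regions at listed starts, 56 other internal regions, 10 outside the genes at an end of another gene and 17 other regions outside. Median tags were 820, 424, 176, 934 and 223 in that order, and median widths 1585, 1520, 757, 1098 and 896 bp. In the whole list the median was 889 tags and 1303 bp for regions at outer starts of protein-coding genes and 205 tags and 804 bp for all others. The median widths of the regions at listed and outer starts were close, and the tags of the internal ones ran from 123 in RBFOX1 to 1996 in ELAVL2. The gene of a region outside the gene bodies is not known from position, and the windows of ELAVL3, NOVA2 and PTBP1 on chromosome 19 contain ends of several other genes.

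Other genes for RNA-binding proteins were taken as a setting for these 10. An outer start was open in 43 of 50 (86%), beside 65% of protein-coding genes. By group it was open in 10 of 12 neural genes, 4 of 6 epithelial or muscle genes, 4 of 5 stem or embryonic genes and 25 of 27 broadly used genes. Median fold enrichment at open outer starts was 8.02, 4.54, 5.94 and 10.8 in the same order, against 8.13 at the 7 outer starts of the RBFOX, ELAVL, NOVA and PTBP genes. The highest were TIA1 at 16.5, CPEB3 at 15.6, and HNRNPC and CPEB4 at 14.9 each. The 7 without an open outer start were CELF2, CPEB1, RBM20, RBM47, LIN28B, CELF1 and MBNL1, and each of these had a region at a listed start. Of the 5239 protein-coding genes with listed starts and no region at the outer start, 16.5% had one at a listed start, and of the 78 with 5 or more listed starts 85.9% did. CELF2 and CELF1 have 10 and 5 listed starts, and the other 5 genes have 1 to 4.

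**Figure D5:**
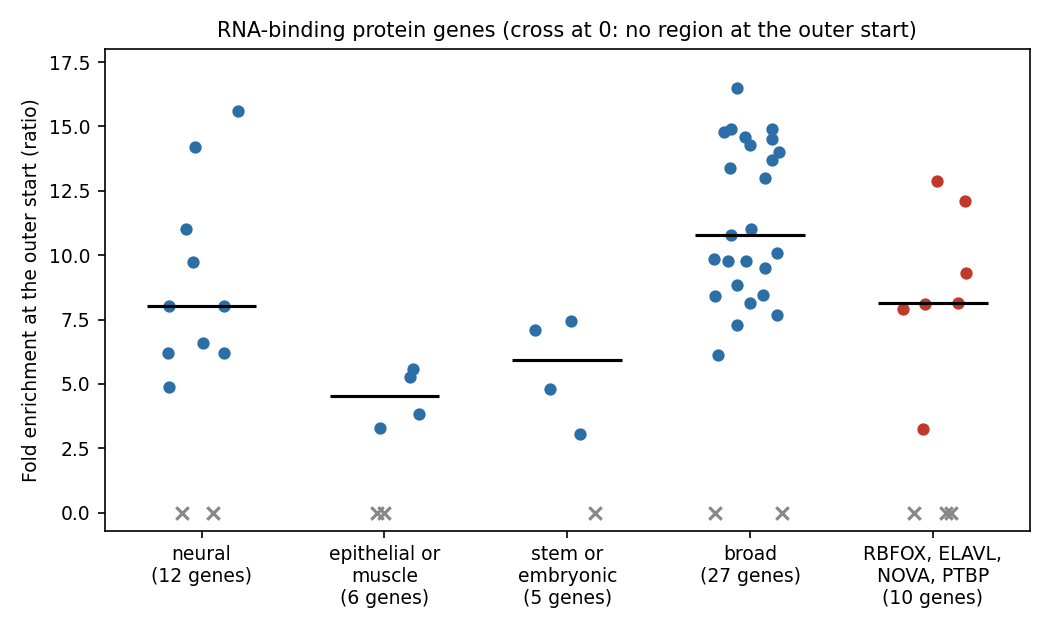
Points are RNA-binding protein genes in 5 groups, placed by the fold enrichment of the region at the outer start (y axis, ratio); black lines are medians of the open starts and crosses at 0 are genes with no region there. The 10 genes described here have 7 red points between 3.24 and 12.9 and 3 crosses.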

How the data were processed

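ATAC-seq of 3 biological replicates (1 group) was analysed from 1 pooled peak list, which the labels name as the optimal set by irreproducible discovery rate. The build is hg38, per the submitters' processing notes; the aligner, peak caller and filters are not given in the sources used here. The authors deposited for each summit a fold enrichment (a linear ratio), a −log10 p, a −log10 q, which was not used here, and a score from 540 to 1000. The 145092 summit entries were merged by identical bounds into 65234 regions, each represented by its summit with the highest −log10 p. Tag counts were recovered as whole numbers under a Poisson tail with a pseudocount of 1 in the ratio, to within 0.00079 units of −log10 p, with a median miss of 0.266 for the next candidate. The background has a floor of 29.2 tags. The calculation was checked on 20000 summits simulated with the same formula, of which 100% were recovered. This check cannot show whether the deposited values follow that formula. The depth of each replicate is unknown.

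Genes, listed starts and sequences came from RefSeq tables for GRCh38.p14, in which all 10 symbols matched and 8 had listed starts. Exons, introns and UTRs were not analysed here. A start was open when a strongest summit lay within 1 kb. Regions were classed as at a listed start by that distance or when the start lay within their bounds, and genes of similar length were protein-coding genes within 25%. The genes named are the 10 members with their regions, the region of highest fold enrichment in each flank, other RNA-binding genes with no open outer start or among the 3 strongest, and the 3 genes nearest in length to RBFOX1, RBFOX3 and ELAVL4. Members and lists were chosen with earlier results of these data known. No test was made, since a pooled list has no replicate error. Alternatives were the score minimum, summit or overlap assignment, unmerged entries, flank, start window, gene end, definition of internal, length tolerance and strength measure. Python 3.11.15, numpy 2.4.6, scipy 1.17.1, pandas 2.3.3 and matplotlib 3.10.9 were used.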

Additional observations from a re-analysis of the deposited data

How the results depend on the processing

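Of 31 values recomputed for 8 results, 27 stayed close to the value reported (for a count, within 1.5 times) and 4 moved. Counting every summit entry gave 223 entries in place of 97 regions and 94 in place of 47 internal regions of RBFOX1, RBFOX3 and ELAVL4. Gene bodies alone gave 63 regions, a 100 kb flank 124, and a 20 kb flank or a score of at least 830 gave 81. That score left 35 of the 47 internal regions. For genes within 10% of its length, the percentile of RBFOX1 was 0, among 2 genes. The count of 7 genes with an open outer start fell to 6 within 500 bp, where ELAVL2 was lost, and was 7 under the other planned settings. Counting listed starts as well was chosen after seeing the data and gave 9 by summit distance, 10 by region bounds, and 9 by bounds with a score of at least 830. Of all 20033 protein-coding genes, 13027 had an open outer start. A further 865 were added by summit distance to a listed start, or 910 by region bounds. The matching share with a score of at least 830 was not computed. For the other RNA-binding genes the count of 43 ranged from 38 to 46. No paired analysis was possible because the list pools the replicates, and for the same reason none could be left out. Intervals cover counting error only, and differences between genes have no replicate check.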
